A study of Mus musculus with 21 samples.

Results

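The genes described here were 8 of the 19241 genes listed in the deposited mouse tumour tables: 5330417C22Rik, Doc2b, Esr1, Pgr, Areg, Prlr, Foxa1 and Gata3. They were chosen by symbol. 5330417C22Rik was selected on its difference between active and sedentary tumours at week 18, and the hormone receptors, hormone targets and luminal factors, with Doc2b, were set beside it. The values at week 18 that chose it are therefore given below as a description, with no test.

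The tumours came from mice carrying MMTV-PyMT, a transgene in which the mouse mammary tumour virus promoter drives the polyoma virus middle T antigen, mainly in mammary epithelium. All tumours of both activity groups carried it. Mice were labelled sedentary or physically active, and tumours were taken at week 12 or week 18, which gave 4 groups of 3 libraries: sedentary week 12, active week 12, sedentary week 18 and active week 18. What the weeks count from, the form of the activity, and whether a library held 1 tumour or several were not given in the sources used here. The labels call the libraries biological replicates without tying each to an animal, so the p-values measure the spread between these libraries.

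Oestrogen acts in the mammary gland through the receptor encoded by Esr1, a nuclear receptor that switches on target genes in a subset of luminal cells. Pgr, the progesterone receptor, and Areg, amphiregulin, a ligand of the EGF receptor that carries the growth signal to neighbouring cells, are classical targets. Foxa1 and Gata3 encode transcription factors of the luminal lineage, and Foxa1 opens chromatin for the oestrogen receptor. Prlr encodes the prolactin receptor, which signals through JAK2 and STAT5 to milk protein genes. 5330417C22Rik, named Elapor1 in RefSeq, encodes a membrane protein of endosomes and lysosomes whose human counterpart was first described as an oestrogen-induced gene. Doc2b encodes a calcium sensor with C2 domains that promotes fusion of secretory vesicles.

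The promoters of 3 genes are shown because 5330417C22Rik carried the week 18 difference and because Pgr and Areg, the oestrogen targets, varied together from library to library. Each window runs from 250 bases before to 50 bases after the RefSeq start on GRCm38.p6, 5′ to 3′ on the gene's own strand, and capitals mark a single arm of the oestrogen response element (GGTCA or its reverse complement TGACC) or an AP-1 site (TGANTCA).
5330417C22Rik, chr3:108536492-108536791, minus strand: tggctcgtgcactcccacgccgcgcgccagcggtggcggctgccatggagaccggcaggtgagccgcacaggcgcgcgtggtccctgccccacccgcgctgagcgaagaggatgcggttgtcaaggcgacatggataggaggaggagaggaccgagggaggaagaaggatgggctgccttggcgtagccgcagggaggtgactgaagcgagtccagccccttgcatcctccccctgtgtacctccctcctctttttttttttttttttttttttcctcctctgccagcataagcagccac
Pgr, chr9:8899583-8899882, plus strand: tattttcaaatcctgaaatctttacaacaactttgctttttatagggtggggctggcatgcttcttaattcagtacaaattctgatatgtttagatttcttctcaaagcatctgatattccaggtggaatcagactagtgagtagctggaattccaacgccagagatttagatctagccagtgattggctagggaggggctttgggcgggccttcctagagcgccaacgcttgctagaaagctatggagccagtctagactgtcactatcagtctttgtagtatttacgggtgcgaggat
Areg, chr5:91139349-91139648, plus strand: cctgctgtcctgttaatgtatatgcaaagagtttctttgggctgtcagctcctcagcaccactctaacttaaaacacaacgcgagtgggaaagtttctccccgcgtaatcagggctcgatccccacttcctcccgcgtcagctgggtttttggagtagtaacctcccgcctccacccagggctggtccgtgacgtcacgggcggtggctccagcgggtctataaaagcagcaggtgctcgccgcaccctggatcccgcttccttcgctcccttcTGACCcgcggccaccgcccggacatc
The promoter of 5330417C22Rik held none of the motifs searched, which were the full oestrogen response element (GGTCA, any 3 bases, TGACC), its single arm GGTCA, the AP-1 site TGANTCA and the GC box GGGCGG, each on both strands and the arm also counted within a full element. Areg held 1 arm and 2 GC boxes, and Pgr held 1 GC box. Of all 32851 RefSeq promoter windows of this length, 0.0700% held the full element, 40.5% an arm, 7.81% an AP-1 site and 35.7% a GC box. In the wider set, 7 of the 8 genes had 10 promoter entries, and none of these held the full element. An arm was found in 1 of the windows of Esr1, and in those of Areg, Foxa1 and Gata3.

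The 12 libraries held 20838963 to 28973775 reads in genes. Epithelial markers were abundant in each tumour: Krt8, a luminal keratin, ranged from 15275 to 47792 normalized counts and Epcam from 6300 to 19140. A library stood apart, active week 12 replicate 3: its summed T and B cell markers (9 genes) reached 21574 against 127 to 315 in the other 11, its adipocyte sum (8 genes) was 339942, and its luminal sum (9 genes) was the lowest, 60785 against 76415 to 151765. Sedentary week 18 replicate 1 also stood apart. Its milk and secretory sum (9 genes), 8703, and its macrophage sum (6 genes), 6478, were the lowest of the 12. Its adipocyte sum was 1701 against 25476 and 16287 in its group. By the mean log2 level of the luminal markers it was the lowest library, at 12.0 beside 12.1 in active week 12 replicate 3. Skeletal muscle markers (8 genes) summed to 53304 to 116391 in sedentary week 12 tumours and to 293 to 1304 in active week 12 tumours. Fold changes of the 8 genes are given with and without active week 12 replicate 3. The muscle-rich libraries make up a whole group and could not be left out. In bulk tumour RNA, fewer cells of a type and less RNA per cell cannot be told apart.

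**Figure D1:**
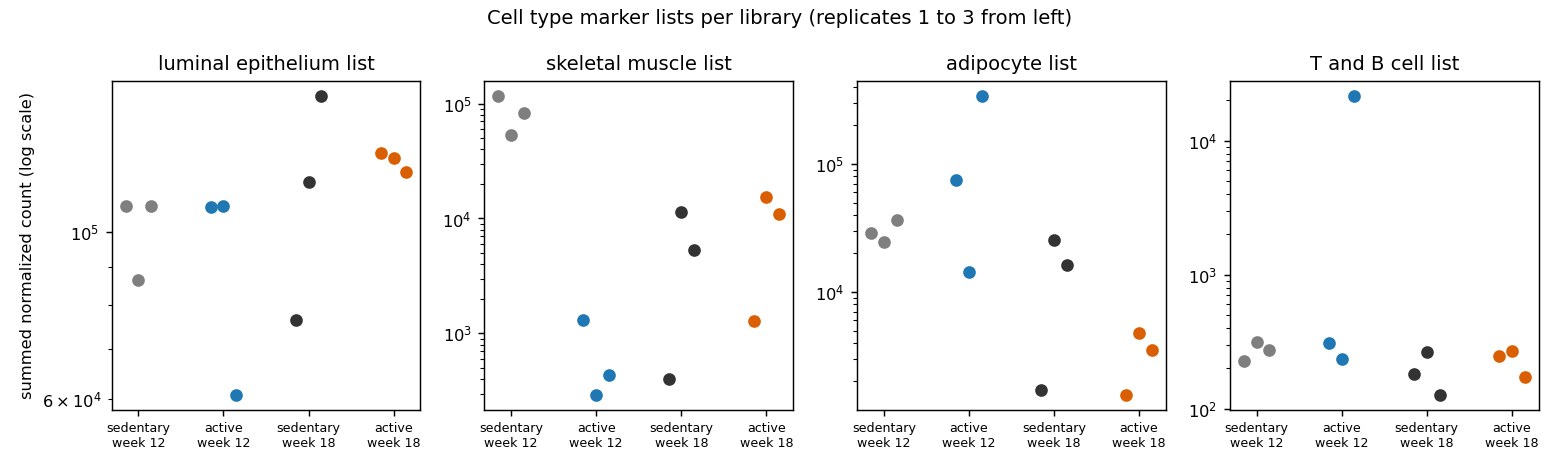
Summed normalized counts (log scale) of 4 cell type marker lists in each of the 12 tumour libraries, by group, with points for replicates 1 to 3 from left. Active week 12 replicate 3 is the highest point for adipocyte and for T and B cell markers and the lowest for luminal markers, and skeletal muscle markers are highest in the 3 sedentary week 12 libraries.

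5330417C22Rik was an abundant transcript in these tumours, and Doc2b a scarce one. The 5330417C22Rik gene lies on the minus strand of chromosome 3 (GRCm38, chr3:108455694-108536536), and its level exceeded that of 96.3% of the genes in the tables. Doc2b lies on the minus strand of chromosome 11 (chr11:75768966-75796049) and exceeded 24.5% of genes. The other 6, all protein coding, are Esr1 (chr10:4611593-5005614, plus strand), Pgr (chr9:8899833-8968611, plus), Areg (chr5:91139599-91148432, plus), Prlr (chr15:10177238-10349180, plus), Foxa1 (chr12:57540628-57546916, minus) and Gata3 (chr2:9857078-9890034, minus). The tables give 1 value per gene, so isoforms are not distinguished. Divided by the length of the gene's exons to allow comparison between genes, the mean level over the 12 libraries was highest for Gata3, at 1208 ± 210 normalized counts per kilobase (SD). 5330417C22Rik followed with 890 ± 447, then Prlr with 265 ± 122, Areg with 167 ± 153 and Foxa1 with 116 ± 138. Pgr was at 35.9 ± 36.7 and Esr1 at 31.9 ± 31.4, and Doc2b was lowest, at 6.57 ± 4.48 per kilobase. Of the neighbours in this order, 5330417C22Rik and Prlr alone differed by more than the larger of their SDs.

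The order hides how differently the genes vary. Gata3 stayed within a 1.70-fold range over the 12 tumours, from 3473 to 5904 normalized counts. Prlr spanned 5.20-fold and 5330417C22Rik 5.34-fold. Esr1, the oestrogen targets and Foxa1 spanned more: Esr1 15.6-fold, Pgr 22.1-fold, Areg 85.5-fold and Foxa1 90.9-fold. The scarce Doc2b spanned 27.0-fold with as few as 2 reads in a library. The ends of these ranges rested on few libraries. Active week 12 replicate 3 gave the highest Esr1 and Foxa1 values, 1725 and 1654, and the next highest Esr1 value was 532. Sedentary week 18 replicate 1 gave the lowest Areg and Foxa1 values, on 6 and 19 reads.

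**Figure D2:**
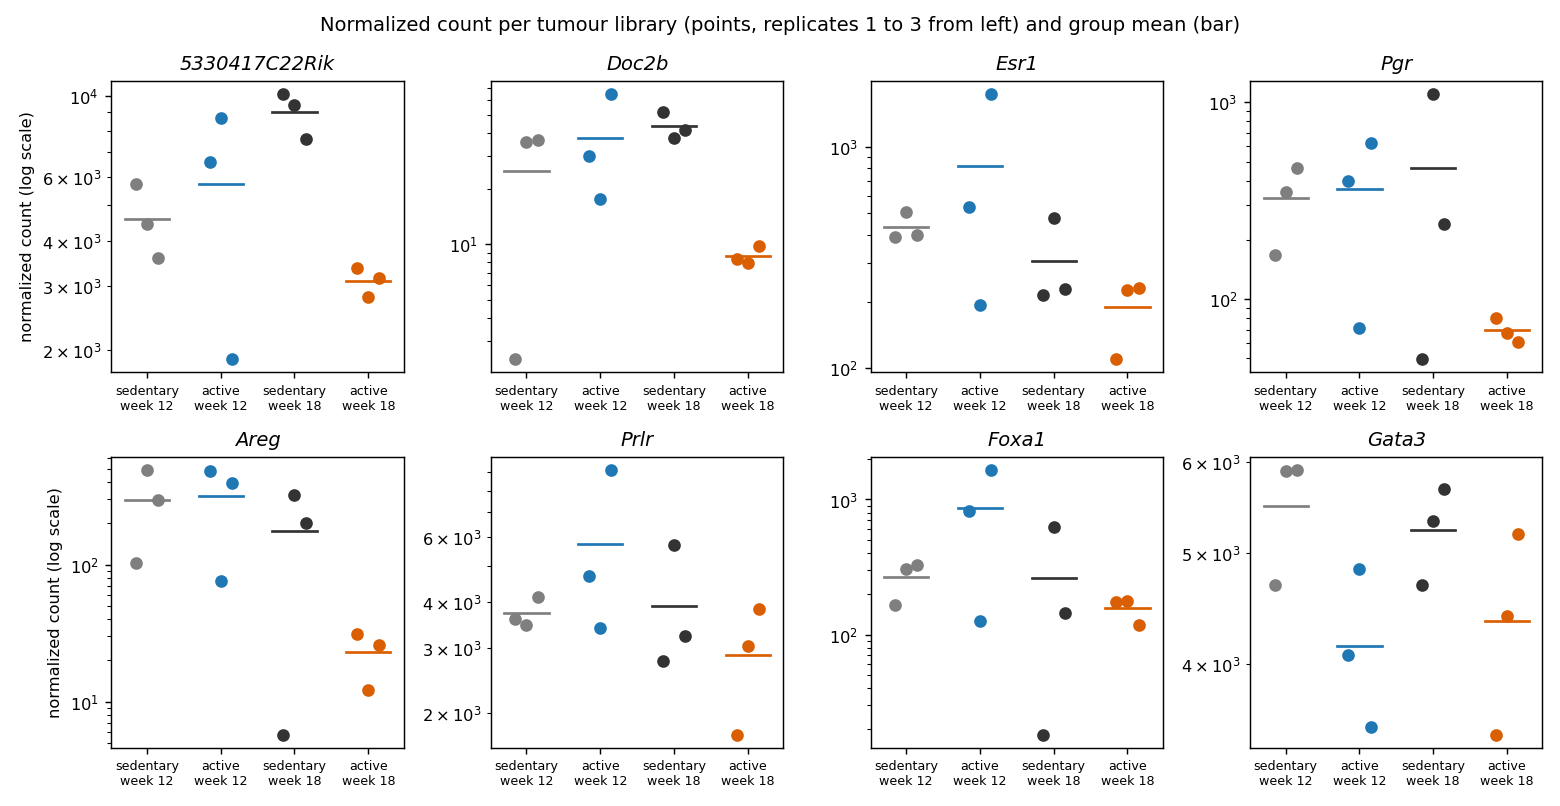
Normalized count (log scale, axes differ between panels) of the 8 genes in each tumour library, with points for replicates 1 to 3 from left and a bar for the group mean. At week 18 the 3 active tumours lie below the 3 sedentary ones for 5330417C22Rik and Doc2b, while the groups overlap for the other 6 genes.

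At week 18, the contrast used to choose it, 5330417C22Rik was 2.91-fold lower in active tumours. The sedentary tumours had 10099, 9414 and 7606 normalized counts and the active ones 3352, 2795 and 3159. The groups did not overlap and were tight: the means were 9039 ± 1288 and 3102 ± 283 (SD, n = 3 each), and the log2 fold change, on the log2(value + 1) scale, was -1.54 with a standard error of 0.18. The log2 fold change in the authors' deposited table for week 18 was also -1.54.

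Doc2b followed it in direction at a far lower level. It had 51.7, 37.4 and 41.6 normalized counts in sedentary and 8.32, 7.87 and 9.81 in active week 18 tumours, from 8 to 54 reads per library. Every active tumour was below every sedentary one, the means were 43.6 ± 7.33 and 8.67 ± 1.01, and the log2 fold change was -2.20 with a standard error of 0.19. In the authors' deposited table Doc2b had -2.43 on the log2 scale.

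The hormone receptors and their targets had lower means in active week 18 tumours, but the groups overlapped for each. Esr1 was at 214, 476 and 227 in sedentary and 110, 225 and 230 in active tumours. Pgr was at 49.8, 1100 and 242 in sedentary tumours and at 80.1, 67.3 and 60.6 in active ones. The active tumours were alike and the sedentary ones spread from the lowest to the highest Pgr value of the whole set.

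Areg had 5.74, 320 and 200 in sedentary and 31.2, 12.2 and 25.8 in active week 18 tumours. Prlr had 2773, 5719 and 3242 in sedentary and 1751, 3032 and 3834 in active tumours. For both genes sedentary replicate 1 fell within or below the active values. That same library also had the lowest Foxa1 value, 18.2, against 622 and 144 in the other sedentary and 173, 178 and 118 in active tumours.

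For Foxa1 the direction depended on the scale: the mean of the active tumours was lower, 156 ± 33.5 against 261 ± 319, while the log2 fold change was 0.36. Without sedentary week 18 replicate 1, whose milk and secretory markers (9 genes) summed to 8703 against 203782 and 307337 in the other 2, the log2 fold change of Foxa1 was -0.96. Leaving out that library moved Pgr from -1.77 to -2.89 and Areg from -1.75 to -3.49, whereas leaving out sedentary replicate 2 moved Pgr to -0.67, Areg to -0.71 and Foxa1 to 1.55. 5330417C22Rik was at -1.45 without the first and -1.50 without the second. The part of the secretory or other cell type markers in these differences was not tested.

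Gata3 was nearly level, with 4687, 5325 and 5680 normalized counts in sedentary and 3473, 4404 and 5192 in active week 18 tumours. The log2 fold change was -0.28, and -0.67 for Esr1 and -0.45 for Prlr. Without sedentary replicate 2 Esr1 was at -0.30 and Prlr at -0.13, and without active replicate 1 Esr1 was at -0.33, Prlr at -0.13 and Gata3 at -0.12. On leaving out each library in turn the lowest values were -0.88 for Esr1, -0.69 for Prlr and -0.41 for Gata3. For the whole week 18 contrast limma called 0% of the 18939 genes tested, 0 genes, with 1131 at an unadjusted p under 0.05. edgeR also called 0 and DESeq2 called 52. In 13.6% of all genes the groups did not overlap in either direction, beside 2 of the 8 genes here, and nothing is read from that count because the choice used this contrast.

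Several cell type marker lists leaned in a shared direction at week 18, although limma called no marker. All 8 adipocyte markers had lower values in active tumours by the log2 fold change, with a median of -1.72. All 7 fibroblast markers did too, with a median of -0.82, and 7 of 8 basal and myoepithelial markers. All 8 skeletal muscle markers (median 1.11) and all 9 luminal markers (median 0.15) had higher values. The summed adipocyte level was 1574 to 4780 in active and 1701 to 25476 in sedentary tumours, and the fibroblast sum was 15581 to 77930 against 41932 to 103379, so both overlapped. The luminal sum was 120171 to 127395 in active and 76415 to 151765 in sedentary tumours, and the level of 5330417C22Rik relative to the luminal list was also lower in active tumours, by -1.78 on the log2 scale. That scaling moved the median of all genes from 0.01 to -0.23, so relative to the median gene the difference was of like size.

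The week 12 libraries were not part of the contrast that selected 5330417C22Rik, although the genes were listed with results of these data known. There the groups overlapped for all 8 genes. 5330417C22Rik was at 5730, 4442 and 3591 in sedentary and 6581, 8682 and 1892 in active tumours. The active values lay on both sides of the sedentary ones. The log2 fold change was 0.08 with a 95% interval of -1.46 to 1.62 and an adjusted p of 0.992 (limma). Without active replicate 3 it was 0.75 (limma adjusted p 0.914), and without active replicate 2 it was -0.35. Whether the weeks differ in this contrast was not tested.

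Doc2b had 2.40, 35.8 and 36.5 in sedentary and 30.1, 17.5 and 64.7 in active week 12 tumours. The first of these values stood on 2 reads. Its log2 fold change of 1.00 had an interval of -1.74 to 3.74 and became -0.15 without sedentary replicate 1, with limma adjusted p of 0.970 and 0.999. Without active replicate 3 it was 0.52. No direction can be read from an interval of that width.

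Among the receptors, Esr1 had 392, 508 and 399 in sedentary and 532, 193 and 1725 in active week 12 tumours. Prlr had 3592, 3466 and 4125 against 4702, 3390 and 9101. In both genes the highest value of the set came from active replicate 3, the library rich in lymphocyte and adipocyte markers. Without it the log2 fold change of Esr1 went from 0.39 to -0.42 and that of Prlr from 0.50 to 0.10.

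Pgr had 168, 352 and 466 in sedentary and 401, 71.1 and 623 in active week 12 tumours, and Areg had 103, 491 and 298 against 480, 76.2 and 394. In both genes active replicate 2 was the lowest and the other active tumours lay within or above the sedentary range. Their log2 fold changes were -0.21 and -0.02, with 95% intervals of -2.48 to 2.06 and -2.33 to 2.29. Without active replicate 3 they were -0.83 and -0.37, and without replicate 2 they were 0.72 and 0.81. Intervals of that width exclude neither a rise nor a fall of several fold.

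Foxa1 showed the largest log2 fold change among the 8 at week 12, 1.13 with an interval of -1.37 to 3.62. It had 164, 304 and 328 normalized counts in sedentary and 821, 126 and 1654 in active tumours, and the change was 0.34 without active replicate 3 and 2.19 without replicate 2. Gata3 had 4683, 5887 and 5904 in sedentary and 4071, 4836 and 3526 in active tumours. Its log2 fold change was -0.41 (-0.30 without active replicate 3), with an interval of -0.90 to 0.08 and the smallest unadjusted p of the 8, 0.0854 by limma over 3 against 3 libraries.

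Over all genes at week 12, limma called 0.517% (99 of 19162, of which 98 were lower in active tumours), and 9.13% did not overlap between the groups in either direction. None of the 8 genes met either criterion, and their adjusted p-values ran from 0.970 to 0.999. The called genes included 7 of the 8 skeletal muscle markers, all lower in active tumours. With the replicate number as a block, 0 genes were called.

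**Figure D3:**
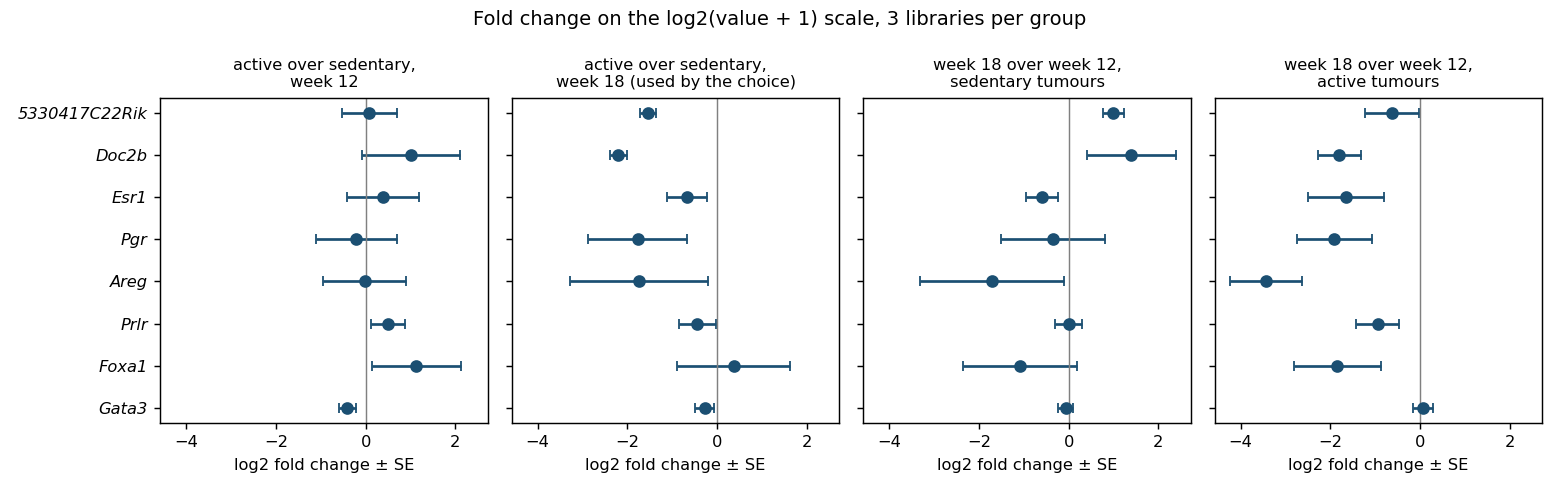
Log2 fold change with its standard error for each of the 8 genes in the 4 comparisons (3 libraries per group). At week 18 the points for 5330417C22Rik (-1.54) and Doc2b (-2.20) have short error bars, those of Pgr, Areg and Foxa1 are wide throughout, and Areg is lowest in active tumours between the weeks (-3.44).

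Levels at week 12 and week 18 can be compared within each activity group, because the deposited tables shared 1 scaling. Since the week 18 values chose 5330417C22Rik, it and Doc2b are again described with no test. In sedentary tumours, 5330417C22Rik had a 1.97-fold higher mean at week 18, 9039 ± 1288 against 4588 ± 1077, and every week 18 value exceeded every week 12 value. In active tumours its mean was 1.84-fold lower at week 18, 3102 ± 283 against 5719 ± 3476, and the groups overlapped because active week 12 replicate 3 had only 1892. Without that library the log2 fold change went from -0.62 to -1.29, without active week 12 replicate 1 to -0.39 and without replicate 2 to -0.19.

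Doc2b had no overlap in either activity group. Its log2 fold change from week 12 to week 18 was 1.40 in sedentary tumours and -1.80 in active ones. The sedentary separation was narrow, with the highest week 12 value at 36.5 and the lowest week 18 value at 37.4, and the change was 0.25 without the week 12 tumour that gave 2 reads. In active tumours the separation was wider, from a lowest week 12 value of 17.5 to a highest week 18 value of 9.81.

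In sedentary tumours the tested hormone and luminal genes overlapped between the weeks, and none passed the threshold. The limma adjusted p-values ran from 0.985 upward. Areg had the largest difference, a log2 fold change of -1.71, which was 0.03 without sedentary week 18 replicate 1. Foxa1 went from -1.09 to 0.24 and Pgr from -0.35 to 0.77 without the same library. Esr1 was at -0.59 with an interval of -1.47 to 0.29, and Prlr at 0.00 with an interval of -0.76 to 0.76. Gata3 was at -0.07 with an interval of -0.49 to 0.36. Limma called 0% of 19000 genes, with 946 at an unadjusted p under 0.05, while edgeR called 0 and DESeq2 172. In 10.4% of genes the weeks did not overlap.

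In active tumours, 5 of the 6 hormone and luminal genes were lower at week 18 by the log2 fold change. Areg was the only one of them whose weeks did not overlap: 480, 76.2 and 394 normalized counts at week 12 and 31.2, 12.2 and 25.8 at week 18. The means were 317 ± 213 and 23.1 ± 9.78, the log2 fold change was -3.44 with a 95% interval of -5.45 to -1.43, and the limma adjusted p was 0.412, from an unadjusted 0.0064. DESeq2 on the recovered reads gave Areg an adjusted p of 0.000115 and edgeR 0.328, and over all alternatives the adjusted p ran from 0.000115 to 0.637. The call thus depended on the test.

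Pgr had 401, 71.1 and 623 at week 12 and 80.1, 67.3 and 60.6 at week 18, a change of -1.91 on the log2 scale that did not pass the threshold (limma adjusted p 0.422). The lowest week 12 tumour lay inside the week 18 range. Foxa1 was at -1.85, Esr1 at -1.65 and Prlr at -0.94, with limma adjusted p of 0.443, 0.440 and 0.437. DESeq2 put Pgr (0.0294) and Foxa1 (0.0408) past the threshold too, Esr1 (0.0791) and Prlr (0.199) not. Gata3 alone was not lower by the log2 fold change, which was 0.06 with an interval of -0.51 to 0.64.

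Active week 12 replicate 3 held the highest week 12 value of Esr1, Pgr, Prlr and Foxa1, so these changes were recomputed without it. Areg was then at -3.10, Pgr at -1.28, Foxa1 at -1.06, Esr1 at -0.84 and Prlr at -0.55, with limma adjusted p from 0.548 to 0.664. On leaving out each library in turn, the lowest values were -4.27 for Areg, -2.84 for Pgr, -2.91 for Foxa1, -2.42 for Esr1 and -1.26 for Prlr, and the highest value of Areg was -2.95. Markers of other cells also differed between these weeks: all 8 adipocyte markers were without overlap and lower at week 18 (median log2 fold change -4.97), 4 of 5 endothelial and 3 of 7 fibroblast markers likewise, and 5 of 8 skeletal muscle markers were without overlap and higher. Their part in the hormone gene differences was not tested.

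For this comparison limma called 0% of 19182 genes, with 2322 at an unadjusted p under 0.05. edgeR called 0 and DESeq2 892. In 24.9% of all genes the weeks did not overlap, so the 2 of the 8 genes here without overlap, Areg and Doc2b, are near the background share.

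The hormone genes were mostly high or low in the same libraries, and Gata3 was only weakly related to them. Over the 12 tumours, as log2(value + 1), Pearson's r was 0.92 between Esr1 and Prlr (Spearman's rho 0.87), 0.89 between Pgr and Areg (rho 0.87), 0.81 between Pgr and Foxa1 (rho 0.87) and 0.75 between Esr1 and Pgr (rho 0.76). These are descriptions with no p, since the genes were listed with results of these libraries known, and the 12 points share groups, scaling and tissue makeup. Without the 2 libraries farthest from the median of the first gene, r was 0.70 for Esr1 and Prlr, 0.93 for Pgr and Areg, 0.80 for Pgr and Foxa1 and 0.83 for Esr1 and Pgr. For the Esr1 pairs the libraries left out were active week 12 replicate 3 and active week 18 replicate 1, and Esr1 and Prlr were less close without them. For Pgr with Areg and with Foxa1 they were sedentary week 18 replicates 1 and 2. Active week 12 replicate 3 thus stayed in, and these 2 pairs were not checked without it.

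Within groups, taken as deviations from each group's mean, r was 0.99 between Pgr and Foxa1, 0.89 between Pgr and Areg, 0.91 between Esr1 and Prlr and 0.69 between Esr1 and Pgr. It was lowest among the 5 hormone-linked genes for Esr1 and Areg (0.45) and for Areg and Prlr (0.46). These values were not recomputed without any library, and groups with a wide spread weigh most in them. Pgr ran from 49.8 to 1100 and Foxa1 from 18.2 to 622 in sedentary week 18 tumours. In active week 18 tumours they ran from 60.6 to 80.1 and from 118 to 178. Over all 12 tumours Gata3 had r of -0.24 to 0.20 with the hormone genes, and within groups -0.19 to 0.16.

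**Figure D4:**
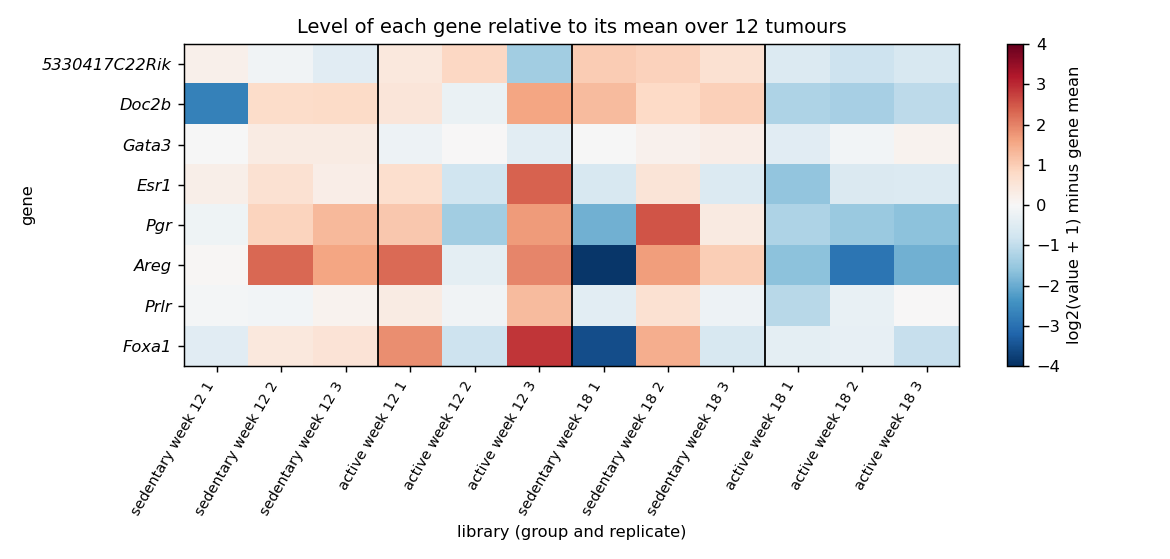
Log2(value + 1) of each gene minus its mean over the 12 tumours, by library (columns, 3 per group) and gene (rows). Esr1, Pgr, Areg, Prlr and Foxa1 are high together in active week 12 replicate 3 and sedentary week 18 replicate 2 and mostly low together in sedentary week 18 replicate 1 and the active week 18 tumours, while Gata3 varies little.

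5330417C22Rik had r of -0.30 with Esr1, -0.02 with Pgr, -0.02 with Areg, -0.20 with Prlr and -0.42 with Foxa1, and 0.39 with Gata3 and 0.16 with Doc2b. Spearman's rho was -0.20 with Esr1, -0.04 with Pgr, -0.33 with Foxa1 and 0.29 with Doc2b. Without active week 12 replicate 3 and sedentary week 18 replicate 1, r was 0.32 with Esr1, 0.49 with Pgr and 0.30 with Foxa1. Within groups, as deviations from each group's mean over all 12 tumours, r was -0.79 with Esr1, -0.67 with Prlr, -0.55 with Foxa1, -0.52 with Pgr and -0.34 with Areg. It was -0.59 with Doc2b, although both were lower in active week 18 tumours, and 0.26 with Gata3. The overall sign with the hormone genes thus rested on the 2 libraries left out above. In these 5330417C22Rik was at its lowest (1892) and highest (10099) while Esr1 was at 1725 and 214.

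**Figure D5:**
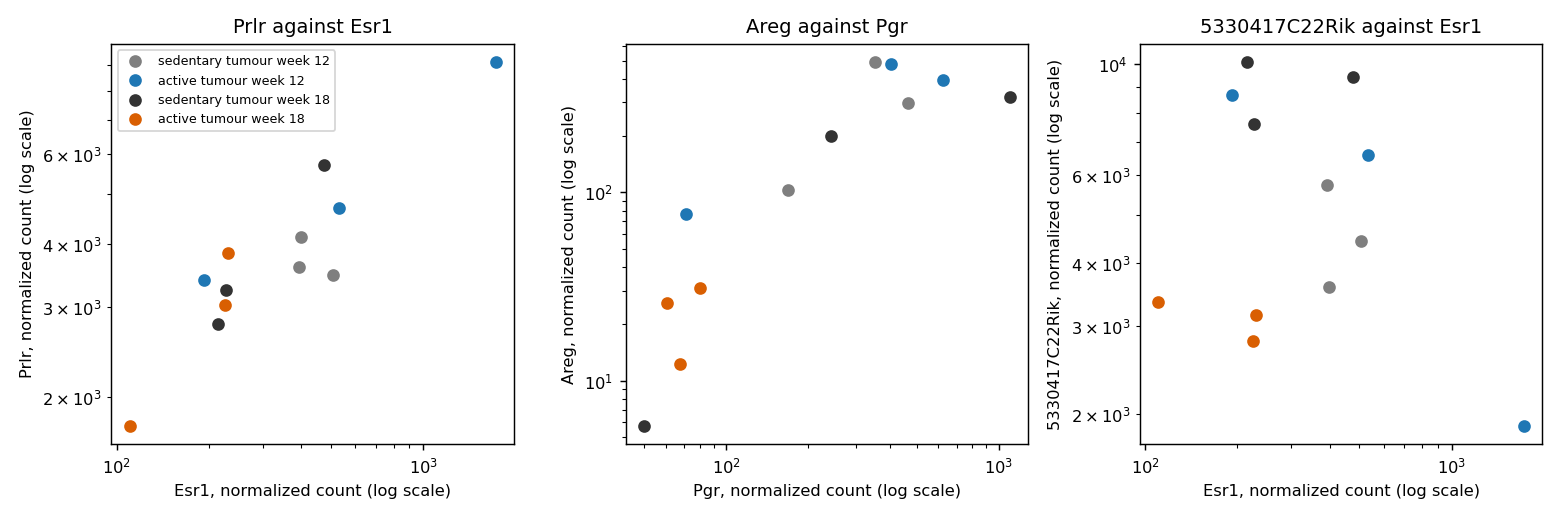
Normalized counts (log scales) of Prlr against Esr1, Areg against Pgr and 5330417C22Rik against Esr1 in the 12 tumour libraries, coloured by group. The first 2 pairs lie along rising bands (r 0.92 and 0.89), and in the third the active week 12 tumour with the highest Esr1 has the lowest 5330417C22Rik.

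The genes most like 5330417C22Rik over the 12 tumours were not the hormone genes. Among 13637 genes with a mean of at least 50 normalized counts, the highest r belonged to Lratd1 (0.89), Zfp280d (0.89), Ist1 (0.88) and Gm12454 (0.87). Lratd1 averaged 1901 ± 198 in sedentary and 1048 ± 139 in active week 18 tumours, and 1442 ± 464 and 1290 ± 441 at week 12. Ist1, which encodes a protein of the membrane-scission machinery of endosomes, averaged 5165 ± 444 and 4017 ± 228 at week 18. Esr1 ranked 10440 of the 13637 in likeness to 5330417C22Rik, and Gata3 ranked 1837. The ranking used all 12 tumours, among them the week 18 values that chose 5330417C22Rik, so genes with a like week 18 difference could rank high through that choice. The ranks were not recomputed without the libraries on which the sign of r with Esr1 rested.

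The genes most like Esr1 were Tshz2, Dhdh, Pqlc3 and Gsta3, each with r of 0.97, and all had their highest value in active week 12 replicate 3 (Gsta3 939 and Tshz2 1154 normalized counts there). Prlr ranked 108 in likeness to Esr1.

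Beyond the 8 genes, 5 pathway lists and the Doc2 and synaptotagmin family list held 85 genes, of which 82 were in the tables. None of them passed the limma threshold in any comparison (0 of 82 at week 12, 0 of 81 at week 18, 0 of 81 in sedentary tumours between weeks and 0 of 82 in active tumours between weeks). The groups did not overlap for 5, 12, 8 and 13 of them, or 6.10%, 14.8%, 9.88% and 15.9%, beside backgrounds of 9.13%, 13.6%, 10.4% and 24.9%. Their median log2 fold changes were -0.03, -0.02, -0.02 and -0.05, beside 0.01, 0.01, -0.02 and -0.03 over all genes. The shares and medians of the listed genes were thus near or below those of all genes. The genes of smallest p in each list are named below with their values.

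Among 21 oestrogen and progesterone response genes, Myb, a transcription factor and oestrogen target, had a log2 fold change of 0.69 with activity at week 12 and of -0.66 at week 18, and of 0.91 between weeks in sedentary tumours (limma adjusted p 0.970, 0.824 and 0.584). Igf1r was at 0.63 at week 12, Nrip1, a corepressor of the oestrogen receptor, at -0.48 at week 18, and Greb1, a cofactor of that receptor, at 1.91 between weeks in sedentary tumours. In active tumours between weeks, Mybl1 was at 0.97. Calca, which encodes calcitonin and its related peptide, had 10.9, 12.4 and 26.8 normalized counts at week 12 and 0, 0.874 and 0 at week 18, so the week 18 level was at or under 1 read.

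Among 12 hormone receptors and coregulators, Ghr, the growth hormone receptor, had 2741, 2521 and 2110 normalized counts in sedentary and 1417, 1467 and 1241 in active week 18 tumours. These did not overlap, with a change of -0.83 on the log2 scale (limma adjusted p 0.686). It was at 0.82 at week 12, where active replicate 3 alone had 13837, at -0.29 between weeks in sedentary and at -1.94 in active tumours. Esr2, the other oestrogen receptor, was at -1.04 at week 18 on 12.2 to 39.3 normalized counts. Ncoa2, a coactivator, was at 0.26 at week 12 and Esrra at 0.15 between weeks in sedentary tumours.

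Among 12 luminal transcription factors, Tbx3, a factor of hormone-sensing luminal cells, had 356, 545 and 941 normalized counts in active tumours at week 12 and 56.2, 49.8 and 55.3 at week 18. Its log2 fold change of -3.38 did not pass the limma threshold (adjusted p 0.379). At week 12 Tbx3 was at 1.36 with activity. Spdef was at 0.83 at week 12 and at 1.47 between weeks in sedentary tumours, Runx1 at -0.95 with activity at week 18, at 0.46 between weeks in sedentary and -0.40 in active tumours, and Msx2 at -1.75 at week 18.

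Among 8 genes of prolactin receptor signalling, the feedback inhibitors had the smallest p. Socs2 was at -1.10 and Socs3 at 0.65 with activity at week 18, and at 0.57 and -0.45 between weeks in sedentary tumours. Socs1 was at 0.62 and Jak2, the receptor's kinase, at 0.18 at week 12. In active tumours between weeks Socs1 was at -0.84 and Stat5a at 0.28. The lowest limma adjusted p among them was 0.492.

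Among 12 EGF receptor family genes, which include the receptors for amphiregulin and its relatives, Erbb4 was at -1.89 with activity at week 18, at 0.56 between weeks in sedentary and at -1.38 in active tumours. Ereg, epiregulin, another ligand, had 0, 1.01 and 0.991 normalized counts in sedentary and 9.36, 6.12 and 10.7 in active week 18 tumours, the opposite order to Areg's means but on at most 12 reads. Ereg had 4.80, 9.48 and 5.61 in sedentary week 12 tumours. Erbb2 was at -0.32 and Egf at 0.40 at week 12, and Egf was at -1.35 between weeks in active tumours.

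Of the 17 Doc2 and synaptotagmin family genes in the tables, Vamp2, a vesicle membrane protein of the fusion machinery, had 1563, 1980 and 1715 normalized counts in sedentary and 1205, 1259 and 1213 in active week 18 tumours. Its log2 fold change was -0.51 there and -0.69 between weeks in active tumours, with limma adjusted p of 0.824 and 0.412. Doc2g, a relative of Doc2b, was at -1.20 between weeks in active tumours, with 92.0, 103 and 116 at week 12 and 44.7, 70.8 and 27.6 at week 18. Sytl5 was at -1.91 at week 18 on 2.08 to 38.5 normalized counts, and Rph3al was at -0.40 at week 12. Syt1 was at 0 in the 3 sedentary week 12 tumours and at 1.82, 2.06 and 16.7 in the active ones. In sedentary tumours between weeks, Unc13d was at -0.83 and Stx4a at -0.21.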

How the data were processed

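RNA of mouse mammary tumours was sequenced from 12 stranded mRNA libraries after TRIzol extraction, per the labels' protocols. The submitters' processing notes name mm10, and the aligner and counter are not given in the sources used here. The deposited signal values are gene counts divided by a size factor. They were whole multiples of 1 step per library within a tolerance of 0.1. The steps equalled the reciprocals of median-of-ratios factors computed jointly over the 12 tumours, so reads were recovered and weeks compared on 1 scale. Log2 fold changes in the authors' deposited table are quoted as theirs, and all adjusted p-values come from the fits made here. The main test was limma 3.58.1 (R 4.3.3) on log2(value + 1), keeping genes whose mean reached 1 in either group, with Benjamini-Hochberg adjustment over all genes and a threshold of 0.05. Alternatives were TMM scaling, no filter, a pseudocount of 0.1, edgeR 4.0.16, DESeq2 1.42.0, the replicate number as a block, leaving out each library, and scaling to the luminal list. Steps were tested on simulated data. Gene spans and exon lengths came from GENCODE annotation on GRCm38, promoters from RefSeq. The genes and lists were chosen with earlier results of these data known. From each list the 2 genes of smallest p per comparison are named, except 1 gene that is not reported here, and for likeness the 4 highest r. At week 18 same-numbered tumours deviated together (correlations 0.164, 0.159 and 0.139), which by the limit of 0.1 counts as pairing. In this balanced design a block cannot alter a fold change, only its error. The 9 hematopoietic stem cell libraries were not used.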

Additional observations from a re-analysis of the deposited data

Results flagged for a closer look

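Doc2b went in opposite directions between the weeks in the 2 activity groups. Its log2 fold change from week 12 to week 18 was 1.40 in sedentary tumours, where all week 18 values lay above the week 12 values, and -1.80 in active tumours, where all lay below. The difference between the groups was not tested, the week 18 values belong to the contrast used in choosing the genes, and the sedentary value was 0.25 without the week 12 tumour that gave 2 reads.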

How the results depend on the processing

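Among the 416 recomputed fold changes of the 8 genes, tested or not, 28 of the tested ones changed sign. Another 3 moved (week 18 under luminal scaling) and 3 passed the threshold (Areg, Pgr and Foxa1 in active tumours, DESeq2). Some of the 28 were small in the main fit, such as Areg at week 12 (-0.02) and Prlr in sedentary tumours between weeks (0.0004). Foxa1 at week 18, untested, also changed sign. It went from 0.36 to -0.73 (edgeR), -0.73 (DESeq2) and -0.96 (without sedentary week 18 replicate 1). The counts of genes called changed most. At week 12 limma called 99, DESeq2 208 and the replicate block 0, with 9 to 71 on leaving out 1 library. At week 18 the 0 called became 1 with no filter, 5 with a pseudocount of 0.1, 52 with DESeq2 and 0 to 5 on leaving out 1 library. In sedentary tumours between weeks it became 10 with that pseudocount, 172 with DESeq2 and 0 to 10 on leaving out 1 library, and in active tumours 5, 892 and 0 to 1. In the paired fits (replicate block) of the other 3 comparisons 0 genes were called, and outside week 18 the numbers did not pair the samples. The cause was not tested.

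At week 12 Pgr was at 0.14 (edgeR), 0.13 (DESeq2) and 0.00 (0.0019, luminal scaling), and Areg at 0.0898, 0.0737 and 0.19. In sedentary tumours Pgr was at 0.51 (edgeR) and 0.50 (DESeq2). In active tumours Gata3 was at -0.37 under luminal scaling, which moved the median of all genes to -0.46. On leaving out 1 library at week 12, 5330417C22Rik ran from -0.35 to 0.75, Doc2b from -0.15 to 1.58, Esr1 from -0.42 to 1.15, Pgr from -0.83 to 0.72 and Areg from -0.65 to 0.81. In sedentary tumours Pgr ran from -1.45 to 0.77, Areg from -2.75 to 0.0317, Prlr from -0.31 to 0.21, Foxa1 from -2.27 to 0.24 and Gata3 from -0.18 to 0.0105. Gata3 in active tumours ran from -0.0715 to 0.22. At week 18 Foxa1 ran from -0.96 to 1.55, while 5330417C22Rik stayed between -1.66 and -1.45 and Doc2b between -2.30 and -2.07. With 3 libraries per group and 2 to 58 Doc2b reads per library, fold changes of the scarce and variable genes are imprecise.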
